A study of Gallus gallus with 6 samples.

Results

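Cell adhesion and guidance genes of the cadherin, catenin, Eph, ephrin, semaphorin, plexin, Slit, Robo, netrin, immunoglobulin adhesion and junction scaffold families were examined for differences in CG methylation between lens epithelial and lens fiber cells. Genes were taken by the start of their symbol, for example CDH, PCDH, EPHA or SEMA, among all genes to which a differentially methylated region (DMR) was annotated. This gave 61 genes of the 3888 genes with a DMR, 2942 of which have a symbol. The 61 genes held 163 of the 7621 DMRs. Having a DMR was a condition for being taken and is therefore not a finding. The direction of the methylation change was not used, and its size entered only through the authors' calling of DMRs.

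Whole genome bisulfite sequencing was performed on White Leghorn chick lenses at embryonic day 13, microdissected into epithelial cells and fiber cells. Each of the 3 replicates per cell type was a pool of 25 lenses, and both groups were untreated tissue of the same strain and age. The comparison asks where the share of methylated CG sites, the mCG level, differs between the cells before and after fiber differentiation. The 6 samples enter as the authors' means, a single level per cell type and DMR, so no spread between replicates could be computed and the read depth behind a level is unknown.

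Each DMR had passed the authors' test between the replicates of both cell types. An approximate standard error at a single CG site (the change divided by the authors' area statistic per site) is given as the error of a change. It ran from 1.59 to 5.66 percentage points over the 163 DMRs, and each change was at least 4.32 times this error. It describes a site within a region selected for a large statistic, not the mean over the region. A level between 0% and 100% in dissected tissue may be the same in every cell or a mixture of cells, and these cannot be told apart here. No marker expression was analysed, so the labelled cell types were not checked against markers.

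Cadherins are calcium-dependent adhesion proteins that hold neighbouring cells together, and catenins tie their inner ends to actin. Eph receptors bind ephrins on the adjacent cell, plexins and neuropilins bind semaphorins, Robo receptors bind Slits, and UNC5 receptors bind netrins. These guidance systems steer growing axons and also set cell position and boundaries in other tissues. In the lens, N-cadherin and ephrin-A5 are known from mouse for the packing of the long, hexagonal fiber cells, and E-cadherin marks the epithelium.

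Short sites inside 7 of the DMRs are shown as examples, for losses and for gains described further on. A supplementary table of the study lists sites of enriched transcription factor motifs within DMRs of selected genes. It covers losses in genes with higher expression in fiber cells, and gains in genes with higher expression in epithelial cells. Other DMRs are outside it, so a DMR that is not listed may still hold such sites. It was held here only in part for gains, and only its letters are used. The 7 sites shown were picked from it and do not stand for the sequence of whole DMRs. For losses of these genes it lists 3 sites in 2 DMRs, and those with the longest shared stretch were picked. The shared stretch thus follows from the choice and is not a finding. Sites from gains were picked for a CG at the centre. First shown are sites from the intronic losses of CDH4 (chr20:7429086-7429295) and CTNNA3 (chr6:7749685-7749968), galGal6 assembly, 5′ to 3′, with the stretch shared by both in capitals.
CDH4: gTTTTCCAAa
CTNNA3: aTTTTCCAAt
Neither holds a CG itself, so the methylation that was lost lay on CG sites around it. Sites from gains with a CG at their centre are shown next, with the CG, the measured unit, in capitals. The DMRs lie in PLXNB2 (chr1:20784087-20784373), PLXNB1 (chr12:11683707-11685034), NTN3 (chr14:14371701-14371818), CADM1 (chr24:4789984-4790363) and EFNA5 (chrZ:48177973-48178299).
PLXNB2: gccccaCGtgctc
PLXNB1: cagccaCGtgcct
NTN3: cccccaCGtgcac
CADM1: atcaCGtgat
EFNA5: atgacaCGtcagta
A site of this kind is a match of letters and was not shown to be bound in these cells.

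Most of these regions were more methylated in fiber cells. Of the 163 DMRs, 147 had the higher level in fiber cells (a gain) and 16 the lower (a loss). Gains were thus 90.2% here and 86.6% over all DMRs of the series, and losses 9.82% and 13.4%. No test of these differences was made. The median change was 21.7 percentage points against 19.9 over all DMRs. Gains went from a median of 24.3% in epithelial cells to 50.2% in fiber cells, and losses from 53.6% to 20.0%. All DMRs of the series had medians of 27.6% and 54.2% for gains and 54.3% and 21.8% for losses.

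**Figure D1:**
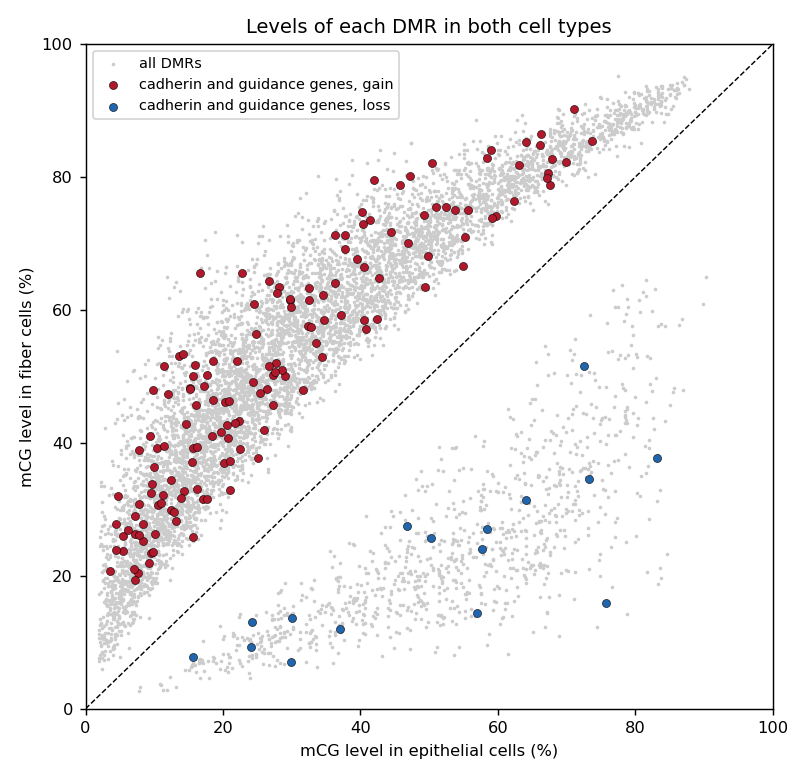
The mCG level (%) of each DMR in epithelial cells (horizontal axis) and in fiber cells (vertical axis) is plotted for all 7621 DMRs in grey, with the 147 gains of cadherin and guidance genes in red and their 16 losses in blue. Points on the dashed diagonal would have equal levels, and the coloured points lie within the 2 grey clouds above and below it.

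The regions lay mainly inside introns. Being annotated to a gene with a symbol was needed to be taken, so DMRs of such genes are the closer comparison for position. Introns of the gene itself, with no exon, promoter or untranslated region of that gene, held 131 of the 163 DMRs, exons were touched by 27 and promoters by 5. By annotations to any gene, 79.1% of these DMRs were in introns with no other gene part, against 62.6% of the 5839 DMRs annotated to a gene with a symbol and 55.8% of all DMRs. A promoter was touched by 4.29%, against 13.7% of all DMRs. CpG islands, stretches rich in CG sites, were touched by 12.3% and 12.7%. Median lengths were 232 bp and 236 bp, with a median of 23 listed CG sites in each.

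By gene, the unweighted average over distinct DMRs was a gain in 57 of 61 genes (93.4%), where the whole series had 84.8%. The 4 genes with an average loss were CDH4, SEMA3E, CTNNA1 and CTNNA3. Only gains were found in 45 genes, only losses in 3, and a mixture in 13. No gene had more than 1 loss, so the 16 losses lay in 16 genes (26.2% of 61, against 20.2% of all genes with a DMR and 21.9% of those with a symbol). This order did not hold for DMRs with an area statistic of at least the series median, where 14.3% of these genes (6 of 42) and 15.5% of all genes had a loss. The genes held more DMRs each than others did: 57.4% had 2 or more and 18.0% had 5 or more, against 36.3% and 6.94% of all genes and 39.1% and 8.29% of genes with a symbol. For DMRs with an area statistic of at least the series median, the shares were 47.6% and 7.14% (3 of 42). All genes then had 30.7% and 4.87%, and genes with a symbol 32.2% and 5.44%. Gene length was not compared. A promoter DMR was annotated to 5 of the 61 genes (CDH11, EPHB3, SEMA3B, SEMA4B and SEMA5B), against 975 of all 3888 genes. It was a gain in all 5, as was the average promoter change of 86.2% of all genes with a promoter DMR.

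**Figure D2:**
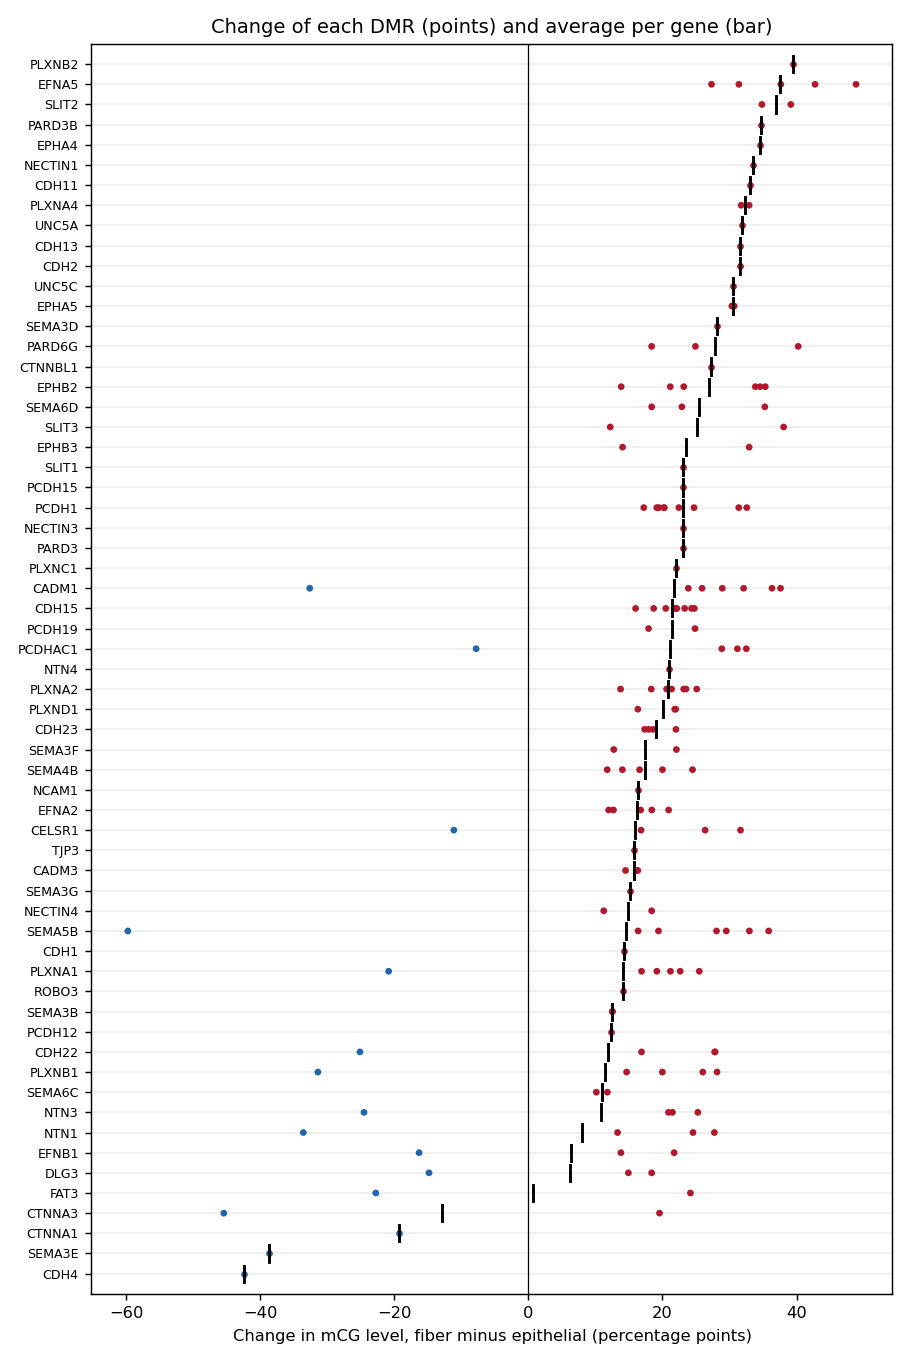
The change in mCG level, fiber minus epithelial, in percentage points (horizontal axis) is shown for every DMR of each of the 61 genes (rows), with gains in red, losses in blue and a black bar at the average of the gene. Averages run from -42.5 points for CDH4 to 39.4 points for PLXNB2, and 4 genes lie left of 0.

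Among the genes named CDH, 8 genes held 22 DMRs, of which 20 were gains. CDH2, which codes for N-cadherin, the main cadherin of lens fibers, had a single intronic DMR (chr2:104787475-104787718), with 9.42% in epithelial and 41.0% in fiber cells. Its change of 31.6 points had a standard error of 3.73 at a single site. CDH1, coding for E-cadherin of epithelia, had a single gain across an exon and an intron (chr11:18877574-18877706), from 59.8% to 74.1%. That region overlaps a CpG island and was already mostly methylated in the epithelium. CDH11, a mesenchymal cadherin, had its DMR in the promoter at an island shore (chr11:12118504-12118622), where the level went from 15.2% to 48.3%. This was the largest of the promoter changes, at 33.1 points with a standard error of 4.14.

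CDH15, the M-cadherin of muscle, shared the highest number of DMRs in the set, 9, all of them intronic gains within 29.8 kb of chromosome 11. Its epithelial levels were widely spread. The lowest were 4.45% and 5.49% and the highest was 66.1%, and the fiber levels of the same regions were 27.8%, 26.0% and 84.8%. The changes were much more alike, from 16.0 to 24.8 points, with an average of 21.5 and an SD of 2.78 over the 9 regions. Regions with small changes are not called as DMRs, which limits this range from below. The median gain over the series was 21.4 points. The other CDH genes included CDH13, the T-cadherin without an inner domain (from 24.8% to 56.4%), and CDH23, a large cadherin of hair cell tip links, with 4 gains of 17.3 to 22.0 points.

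Both CDH losses were in introns on chromosome 20. CDH4, coding for R-cadherin of retina and brain, had no other DMR than the loss with the site shown above. There the level was 56.9% in epithelial and 14.5% in fiber cells, a change of -42.5 points with a standard error of 4.04. CDH22, a cadherin known mainly from brain, lost methylation in a single region (chr20:10664964-10665397), with 37.1% in epithelial and 12.0% in fiber cells. Its other 3 DMRs, before and after that region, were gains of 27.9, 16.9 and 27.8 points.

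Protocadherins, relatives of the cadherins known mostly from the nervous system, had 17 DMRs in 5 genes, with 16 gains. PCDH1 matched CDH15 with 9 gains. Their changes ran from 17.2 to 32.6 points, with an average of 23.0 and an SD of 5.49. Among them was the gain that came next to the largest of the set by area statistic (830), a region of 1072 bp in an intron (chr13:2790288-2791359) that went from 37.7% to 69.1%. A single exonic DMR (chr13:2792972-2793244) went from 71.1% to 90.3%, the highest fiber level of the set. Only 235 bp before it, another region went from 3.58%, the lowest epithelial level of the set, to 20.8%. Both extremes of level thus lay side by side, with changes of 19.1 and 17.2 points.

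PCDHAC1 belongs to a cluster of alpha protocadherin genes in which many first exons share the last ones, so the gene to which a DMR belongs is uncertain there. Its DMR of 3406 bp with 125 listed CG sites (chr13:1403664-1407069) ranked 3rd in length among all 7621 DMRs. That region went from 17.7% to 50.2% and had the largest area statistic of the set, 1199. A single region further on (chr13:1411796-1411945) lost methylation, from 15.7% to 7.86%, the smallest loss of the set at -7.80 points with a standard error of 1.59. PCDH12, PCDH15 and PCDH19 had gains alone, with averages of 12.3, 23.1 and 21.4 points.

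The giant cadherins of planar polarity and growth control were represented by CELSR1 and FAT3, each with a loss across an exon and an intron. In CELSR1, a core planar polarity gene, the loss went from 24.2% to 13.0%, and 3 gains of 16.8 to 31.6 points were listed on one side of it. In FAT3 a loss from 29.9% to 7.09% and a gain from 9.66% to 33.8% nearly cancelled to an average of 0.706 points. That average is the value of neither region.

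Genes named CTNN had only 4 DMRs, in 3 genes, with 2 gains and 2 losses. CTNNA1, coding for the alpha-catenin of epithelia, had a single DMR in an intron at an island shore (chr13:3391296-3391388), with 46.8% in epithelial and 27.5% in fiber cells. The gene LRRTM2 is annotated to the same region. CTNNA3, the alpha-catenin of heart and testis, had the second largest loss of the set, from 83.1% to 37.7% (-45.4 points, standard error 3.47). Its other DMR, 53635 bp away, was a gain from 8.30% to 27.9%, and the average of the gene was -12.9 points. CTNNBL1 entered by its symbol, although its product is known as a splicing-associated protein and not as a junction protein. It went from 4.79% to 32.0%.

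Eph receptors, the tyrosine kinases that respond to ephrins on neighbouring cells, had 11 DMRs in 4 genes, all of them gains. EPHB2 had 6 intronic gains within 45.5 kb of chromosome 21, with changes from 13.8 to 35.3 points. EPHA4, which binds ephrins of both classes, went from 15.6% to 50.1% in an intron. EPHA5 had gains of 30.7 and 30.4 points over 125 kb of chromosome 4. EPHB3 had a promoter gain (chr9:16132475-16132611) from 7.05% to 21.1%, and a larger gain across an exon and an intron, from 47.2% to 80.2%. The median change of Eph receptor DMRs, 30.7 points, was the highest of the 12 groups, over only 11 regions.

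Among ephrins, EFNA5 had 5 gains spread over 199.7 kb of the Z chromosome, with an average of 37.6 points, the second highest of the 61 genes. The largest single gain of the set was in its last part, across exon, intron and 3′ UTR (chrZ:48334624-48335000), with 16.7% in epithelial and 65.5% in fiber cells. This change of 48.9 points, with a standard error of 3.63, ranked 12th among all gains of the series. The other EFNA5 regions, in introns, changed by 31.4, 42.8 and 27.3 points, with 37.7 points in the one that holds the site shown above.

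EFNA2 also had 5 gains, but smaller, from 12.0 to 20.9 points. EFNB1, a transmembrane ephrin that can signal back into its own cell, had gains of 13.8 and 21.7 points and a loss. That loss (chr4:1050170-1050410) went from 30.0% to 13.7%, at -16.3 points with a standard error of 2.82.

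Semaphorins, secreted or membrane-bound ligands of plexins, had 24 DMRs in 9 genes. SEMA5B held both the largest loss of the set and 6 gains. In its intron (chr7:26658649-26658842) the level was 75.7% in epithelial and 15.9% in fiber cells, a change of -59.8 points with a standard error of 4.57. This was the 8th largest loss among all 7621 DMRs, but it rests on 8 listed CG sites, the fewest of the set. The nearest gain, 2201 bp further on, went from 39.6% to 67.6%. A promoter and intron DMR of SEMA5B (chr7:26722846-26722994) went from 21.0% to 37.3%.

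SEMA3E, a secreted ligand of plexin-D1, had a single DMR, an intronic loss (chr1:9694349-9695165) from 73.3% to 34.5%, at -38.8 points with a standard error of 5.24. The other class 3 semaphorin genes, SEMA3B, SEMA3D, SEMA3F and SEMA3G, had gains alone. In SEMA3B a gain at a CpG island in the promoter (chr12:3630032-3630314) went from 9.31% to 21.9%, and an exonic one from 25.1% to 37.7%. These regions had 77 and 78 listed CG sites. Their changes of 12.6 and 12.5 points had standard errors of 1.78 and 2.39 at a single site.

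SEMA4B codes for a transmembrane semaphorin. All of its 5 gains overlapped CpG islands, and 3 of them touched the 3′ UTR at the end of the gene. Its promoter DMR (chr10:20467836-20467944), also annotated to the neighbour IDH2, was already at 73.7% in epithelial cells and went to 85.5%. SEMA6C had gains of 11.8 and 10.1 points, the smallest of the set among them, and SEMA6D had 3 gains with an average of 25.5 points.

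Plexins, the receptors that semaphorins bind, had 25 DMRs in 7 genes, and the average was a gain in all 7. PLXNB2 had the highest average of the 61 genes from a single intronic region, with 13.6% in epithelial and 53.0% in fiber cells. PLXNA2 had 7 gains of 13.8 to 25.1 points along 44.7 kb of chromosome 26. PLXNB1, a receptor of SEMA4D, had a long gain of 1328 bp across its 5′ UTR, exon and intron, from 14.6% to 42.8%, with 3 smaller gains after it. At the far end of its DMRs a loss (chr12:11720877-11721170) went from 58.4% to 27.0%. PLXNA1 also had a loss, from 72.5% to 51.6%, which lay 2484 bp from the nearest of its 5 gains. PLXNA4, PLXNC1 and PLXND1 had gains alone, with averages of 32.3, 22.0 and 20.0 points.

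Slits and Robo receptors had 6 DMRs, all gains. SLIT2, a secreted repellent, had neighbouring gains from 36.4% to 71.2% and from 14.2% to 53.4%. SLIT1 had a gain of 23.1 points over 73 listed CG sites, and SLIT3 had gains of 12.2 and 38.1 points. ROBO3 went from 49.4% to 63.5% in a region that a further gene without a symbol shares.

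Netrins and their UNC5 receptors had 11 DMRs in 5 genes, with a loss in each of NTN1 and NTN3. NTN1 codes for netrin-1, a secreted cue that attracts or repels depending on the receptor. Along chromosome 18, its level went from 36.2% to 64.0%, then from 57.7% to 24.1%, then from 67.2% to 80.5%. The loss in the middle (chr18:2066194-2066373) was thus flanked by gains, the nearer one 595 bp away, and a further gain of 24.6 points lay beyond them. NTN3 showed the same arrangement on chromosome 14. There a loss across an exon and an intron (50.3% to 25.8%) lay between gains of 20.9 and 21.5 points, with another gain of 25.3 points further on. NTN4, UNC5A and UNC5C had a single intronic gain each, of 20.9, 31.9 and 30.5 points.

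Immunoglobulin adhesion molecules, which bind cells to each other without calcium, had 15 DMRs in 6 genes. CADM1 had 6 gains of 23.9 to 37.6 points and a loss from 64.0% to 31.4% (chr24:4791995-4792106). That loss lay 1632 bp after the gain with the site shown above. NCAM1, a neural adhesion molecule also present in lens, went from 31.7% to 48.0% in a single intron region. CADM3 had 3 gains of 14.5 to 16.3 points. NECTIN1, NECTIN3 and NECTIN4, whose products join cadherins at adherens junctions, had gains alone, with averages of 33.5, 23.0 and 14.8 points.

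Scaffolds of tight junctions and cell polarity had 9 DMRs in 5 genes. PARD3, a core polarity gene that places tight junctions, went from 9.46% to 32.5%. PARD3B and PARD6G had averages of 34.7 and 27.8 points, and an intronic region of PARD6G gained 40.2 points. TJP3, a zonula occludens gene, had a gain of 15.8 points in an exon. DLG3 had gains of 14.9 and 18.4 points and a loss over 44 listed CG sites, from 24.1% to 9.27%, with the largest area statistic among losses of the set (-303).

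Losses differed in where they started. Epithelial levels of the 16 losses ran from 15.7% to 83.1%, and fiber levels from 7.09% to 51.6%. The 5 largest, in SEMA5B, CTNNA3, CDH4, SEMA3E and NTN1, all started at 56.9% or more and had changes from -33.6 to -59.8 points. PCDHAC1, CELSR1, DLG3 and EFNB1, the 4 smallest, started at 30.0% or less, and a region cannot lose more than its starting level. The next smallest, in CTNNA1 and PLXNA1, started at 46.8% and 72.5% and changed by -19.3 and -20.9 points. FAT3 lost more, at -22.8 points, although it started at 29.9%. The starting level is also a part of the change itself. Whether the starting level limited the size of a loss was not tested. Of the 16, 13 lay in introns alone, as did 118 of the 147 gains. The series shares in introns were not computed by direction, so these counts give no comparison with other genes. An island or shore was touched by 3 of the 16 losses (18.8%), against 23.7% of all losses of the series. For gains it was 35 of the 147 (23.8%), against 24.9% of all DMRs of either direction. In 13 of the 16 genes (81.2%) a gain was listed as well, against 40.3% of all genes with a loss. For genes with a symbol the share was 42.2%, though the genes described here hold more DMRs each. In 6 of the 13 (SEMA5B, NTN1, CADM1, CDH22, NTN3 and PLXNA1) gains stood on both sides of the loss. The share of all genes with this arrangement was not computed, so the count gives no comparison with other genes.

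**Figure D3:**
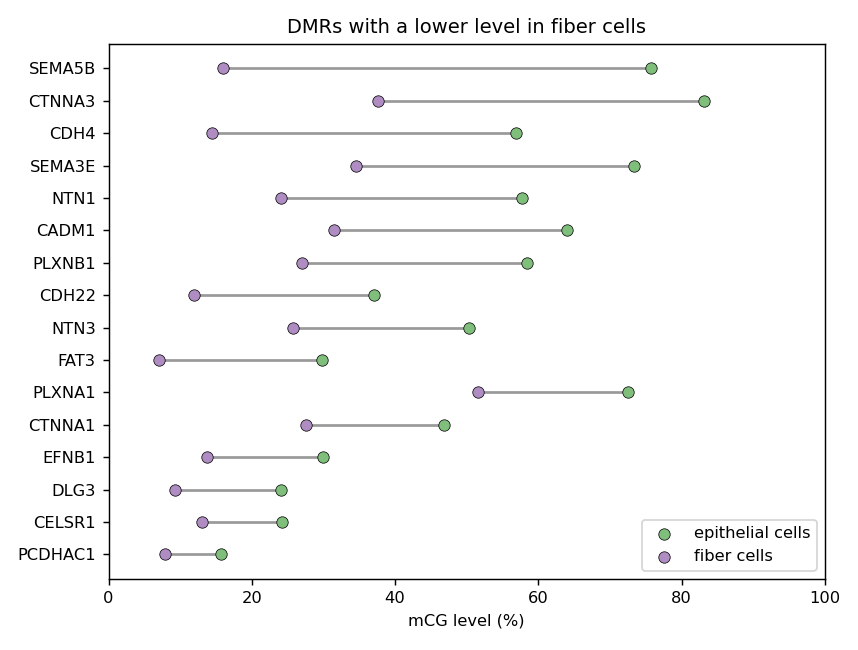
The mCG level (%) in epithelial cells (green) and fiber cells (purple) is drawn for the 16 DMRs with a lower level in fiber cells, ordered by size of change from SEMA5B at the top (75.7% and 15.9%) to PCDHAC1 at the bottom (15.7% and 7.86%). The points are the authors' group means and have no error bars. The rows from SEMA5B down to PLXNB1 start at 56.9% or more, and those from EFNB1 down at 30.0% or less. Starting levels are mixed between them, and PLXNA1 starts at 72.5% with a change of -20.9 points.

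In a minority of the genes with several DMRs, directions were mixed. Of the 35 genes with 2 or more DMRs, 13 held both directions, where 22.5% of all such genes did. Of the 11 genes with 5 or more, 4 did (SEMA5B, CADM1, PLXNA1 and PLXNB1), against 35.9% of all such genes. An average over a gene hides this. SEMA5B averaged 14.6 points with an SD of 33.5 over its 7 DMRs, whereas PLXNA2 averaged 20.8 points with an SD of 3.82 over as many.

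**Figure D4:**
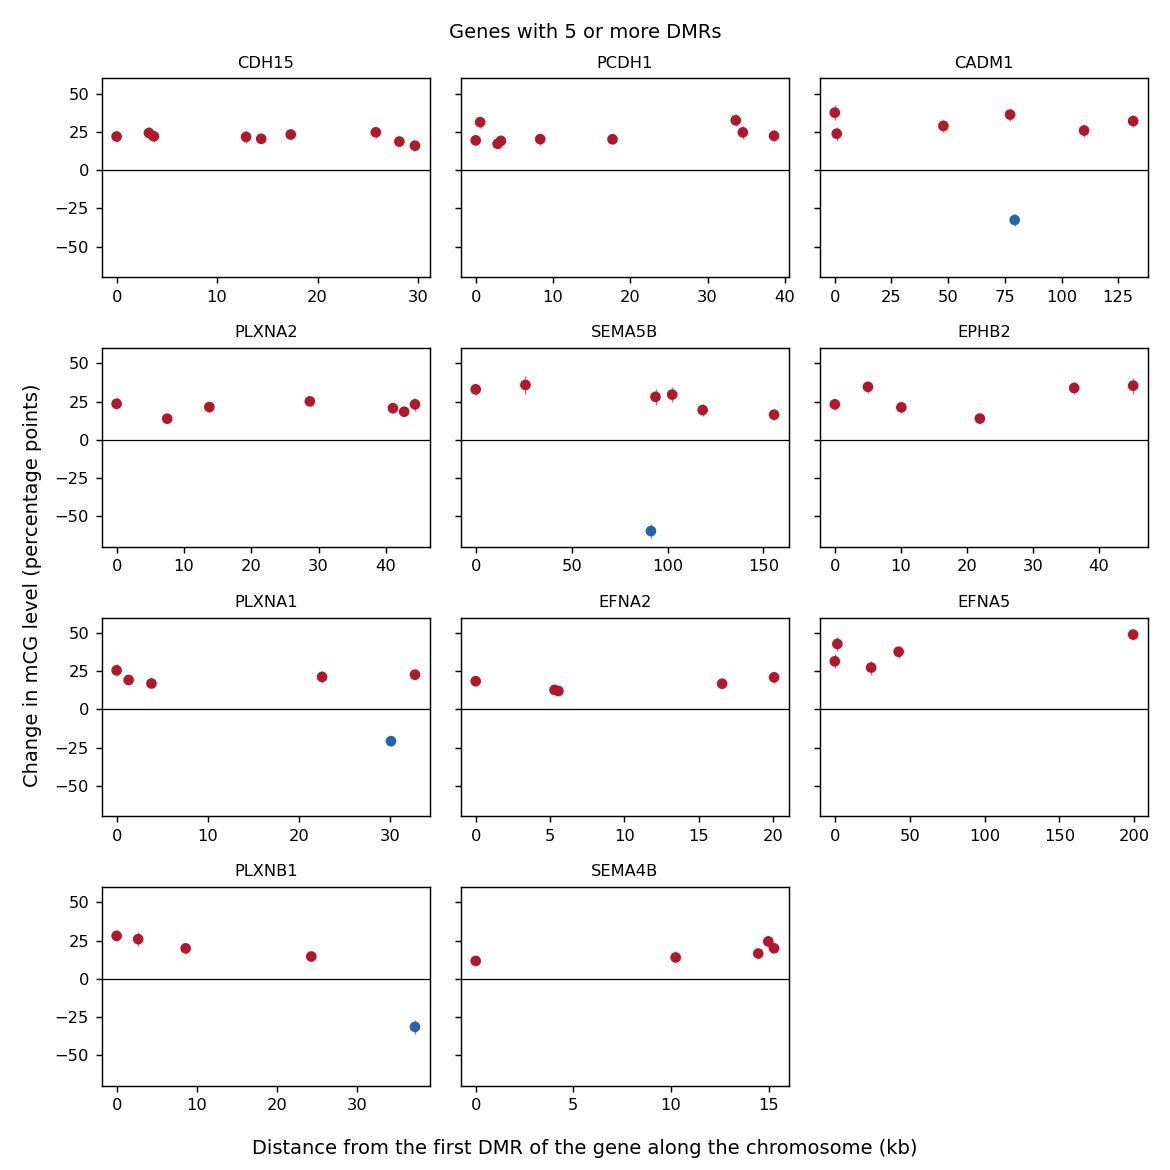
For the 11 genes with 5 or more DMRs, the change in mCG level in percentage points (vertical axis) is plotted against the distance in kb from the first DMR of the gene along the chromosome, with gains in red, losses in blue and bars of 1 approximate standard error at a single site. In CADM1, SEMA5B and PLXNA1 a lone loss stands between gains, and in PLXNB1 it stands at the end.

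Family members without a DMR were looked up by name in a RefSeq gene table of the GRCg7b assembly, which served for names only. It lists 141 protein-coding genes of these families, and 59 of them had a DMR under the same symbol. The share of all protein-coding genes with a DMR was not computed, so these counts give no comparison with other genes. No DMR was listed under CTNNB1 and CTNND1, coding for beta-catenin and p120-catenin, under EPHA2 and EFNB2, or under NRP1, NRP2, ROBO1, ROBO2, TJP1 and DLG1. A smaller difference, or a listing under another name, was not tested.

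Partner genes outside the chosen families were taken from 3 lists based on general knowledge. Their shares of gains lay on both sides of the 86.6% of all DMRs and the 84.8% of all genes. The numbers of list genes with a DMR have no such series value and give no comparison with other genes. Of 53 guidance signalling partners, 21 had a DMR, with an average gain in 19 (90.5%) and 72 gains among 78 DMRs (92.3%). PTPRF, a receptor phosphatase, had 22 gains, and RGMA, a repellent ligand of neogenin, had 10. The kinase genes FYN and PAK3 had an average loss, FYN from 1 gain and 1 loss. Of 39 junction linkers and polarity genes, 16 had a DMR, with an average gain in 13 (81.2%) and 35 gains among 42 DMRs (83.3%). ACTN1, AMOTL1 and PRICKLE2 had an average loss, PRICKLE2 from 2 gains and 2 losses. NHS, a gene linked to cataract in humans, had a single DMR, a gain of 35.7 points.

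Of 42 other contact proteins, 16 had a DMR, with an average gain in 10 (62.5%), an average loss in 6, and 44 gains among 57 DMRs (77.2%), both shares below those of the series. The 6 were JUP, PKP1 and PKP4, which code for plaque proteins of desmosomes and related junctions, and NRCAM, SDK1 and SDK2, which code for immunoglobulin adhesion molecules. NRCAM had 2 losses and averaged -38.6 points, whereas JUP, SDK1 and SDK2 each held 1 gain beside their losses. BOC and CDON, known as co-receptors of hedgehog signals, had gains alone, 11 and 8 of them. NEO1, coding for neogenin, a netrin and RGM receptor, had 7 gains.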

How the data were processed

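Lens DNA was bisulfite sequenced, and the authors called bases with CASAVA, trimmed reads with Trimmomatic and aligned them to galGal6 with Bismark (versions not given in the sources used here). The authors called DMRs with DSS from 3 epithelial and 3 fiber replicates. Their deposited table gives each DMR's mean mCG level per cell type as a fraction pooled over replicates, and the area statistic, a score that sums Wald statistics over CG sites. Smoothing over neighbouring sites makes nearby levels alike, and selection by p favours regions with many sites or deep coverage. A column of the authors' differences was only compared with the levels.

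Lines (13180) were joined to 7621 DMRs, levels were turned into percent, and the change was fiber minus epithelial. Members, lists and the rule for named genes (every gene with a loss, a promoter DMR or 5 or more DMRs, the 5 largest changes per direction and gains by area statistic, and known lens genes) were chosen with earlier results of these data known. Partner genes and genes without a DMR were named as examples after their values were seen. No test was made, since levels were pooled. The steps were tested on simulated data. Alternatives were area statistics of at least the series median, a change of 20 points or more, promoter and gene body lines, DMRs of 1 gene, alternate symbols, 10 or more CG sites, and other averages. Python 3.11.15, pandas 2.3.3, NumPy 2.4.6, SciPy 1.17.1 and matplotlib 3.10.9 were used.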

Additional observations from a re-analysis of the deposited data

How the results depend on the processing

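The share of gains stayed between 89.4% and 92.8%, and the share of genes with an average gain between 93.4% and 95.2%, under every alternative that was run. Promoter and gene body lines, and alternate symbols, left the same 147 gains among 163 DMRs, so they could not move these shares. With an area statistic of at least the series median, 95.2% of these genes and 87% of all genes had an average gain. The median change rose to 25.2 percentage points when only changes of at least 20 points were kept, which raises it by construction. Genes with a loss became 14.3% (6 of 42) when DMRs needed an area statistic of at least the series median, against 16 of 61. Promoter genes gained in all cases, but 1 gene was left under the area statistic and under the minimum change. With at least 10 listed CG sites the SEMA5B loss dropped out. No gene average turned its sign when it was weighted by CG sites or replaced by a median. No paired analysis was possible because the levels are pooled over replicates, and for the same reason no replicate could be left out.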

Other observations

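Some of these genes are neighbours. SEMA3G, SEMA3F and SEMA3B follow each other on chromosome 12, with 50.5 kb and 37.4 kb between their outermost DMRs, and all 5 of their DMRs were gains. CDH15 and CDH1 lie 277 kb apart on chromosome 11 by the same measure, where all 12 DMRs of the set were gains. Chromosomes 12, 13 and 1 held the most DMRs of the set, 19, 18 and 14, with 2, 2 and 3 losses. Gains were 86.6% of all DMRs of the series. Series counts per chromosome were not computed, so the counts by chromosome give no comparison with other genes.

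In 25 of the 147 gains (17.0%) the epithelial level was under 10%, among them regions of CDH2, PARD3, CTNNBL1 and PCDH1, and over the whole series this held for 884 of 6602 gains (13.4%). The fiber level was above 80% in 13 of the 147 (8.84%) and in 683 of all 6602 gains (10.3%). Almost all DMRs that start under 10% are gains in the series too, 884 of 886. A region cannot lose more than its starting level, and whether this sets the direction was not tested.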
